A study of Mus musculus with 6 samples.

Results

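The lysosome was followed here through 10 genes for its enzymes, its membrane and its transcriptional control, namely Ctsb, Ctsd, Ctsl, Ctsz, Npc2, Hexa, Gaa, Lamp1, Lamp2 and Tfeb. All 10 were measured, by 20 of the 28898 probe sets that name a single gene, out of 45037 probe sets and 17097 genes in all. The RNA came from gastrocnemius muscle of male ICR mice, 7 weeks old on arrival, whose sciatic nerves were cut on both sides. The MA group ate the AIN-93G diet with 0.27% maslinic acid (MA), a triterpene of olive peel, from 1 week before the operation, and the control group ate that diet without it. Muscle was taken on day 14, with 3 arrays per group, and no array of innervated muscle was among the 6, so that the effect of denervation itself was not measured. Whether each array of a group stands for a mouse of its own is stated by neither the labels nor the methods. The p-values thus cover the array-to-array spread alone, which may be technical.

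Lysosomes are acidic vesicles in which proteases, glycosidases and lipid-handling proteins break down material from endocytosis, phagocytosis and autophagy. Their enzymes are mostly made in the endoplasmic reticulum and delivered through mannose 6-phosphate receptors, and a proton pump, the V-ATPase, keeps the interior acidic. Macrophages, which clear debris in injured muscle, are rich in lysosomes, while in muscle fibers the lysosome takes part in atrophy and in the turnover of glycogen. TFEB is a transcription factor that induces many lysosomal genes together.

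In the MA group 9 of the 10 genes were lower and 1 was higher. Values are log2 expression values made by the authors with RMA, a method that brings all arrays to one distribution, and each gene is represented by its brightest probe set unless others are named. Gene positions are those of RefSeq on the GRCm38.p6 build. A gene was called where the adjusted p of limma was under 0.05, whatever its fold. Over all 17097 genes, 23.0% were called lower and 24.7% higher, so that a call alone was common in these arrays. At the thresholds of the study's methods, a fold above 1.2 with p under 0.05 unadjusted, 6 of the 10 genes were lower and 0 higher, against 6.87% lower and 5.92% higher over all genes. The 0 held for adjusted and unadjusted p alike, because the fold decided it. MA and control arrays stood apart without overlap at 10 of 10 genes, as at 58.6% of all genes. The median difference of the 10 genes was -0.29 on the log2 scale, and that of all genes was 0.0063. Hybridization controls, which are transcripts added from outside, had MA means above the control means at 18 of 18 probe sets, by 0.04 to 0.35 with a median of 0.17. Lamp1 and Lamp2 differed by less than that median and with the opposite sign. Ctsl, the gene that was higher, differed with the same sign as these controls and within their range. Their part in the results was not tested.

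**Figure D1:**
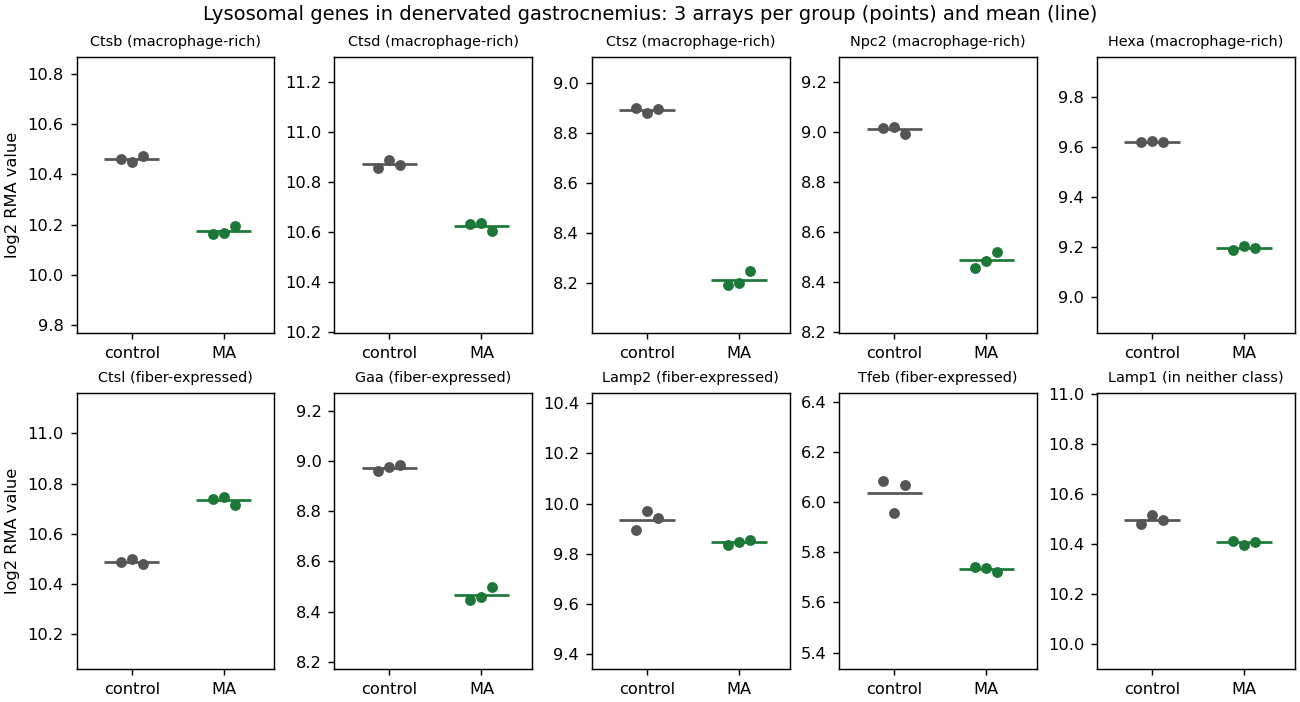
Log2 RMA value (y axis, each panel spanning the same range of log2 units) of the brightest probe set of each of the 10 genes in the control and MA groups, with 1 point per array and a line at the mean of 3. The groups do not overlap in any panel, the MA arrays lie lower in 9 panels, and Ctsl is the exception, at 10.72 to 10.75 in the MA group and 10.48 to 10.50 in the control group.

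Among the proteases, Ctsz fell most and Ctsl rose. Ctsz (chr2:174427494-174439039) encodes cathepsin Z, a cysteine carboxypeptidase that is abundant in macrophages and other myeloid cells. Its log2 values were 8.19, 8.20 and 8.25 in the MA group and 8.90, 8.88 and 8.90 in the control group. Every MA array thus lay clearly under every control array, and Ctsz was 1.60-fold lower (difference -0.68, standard error 0.024, adjusted p = 1.99e-07). Its other probe sets differed by -0.80 and -0.72, so that the 3 probe sets of Ctsz moved alike.

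Ctsd (chr7:142375910-142387827) encodes cathepsin D, the main aspartic protease of the lysosome. It had 10.63, 10.64 and 10.60 in the MA group and 10.86, 10.89 and 10.87 in the control group. The groups were apart by more than their spread, and the fall was 1.19-fold (difference -0.25, adjusted p = 4.85e-05), under the 1.2-fold threshold. Ctsd has a single probe set on the array.

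Ctsb (chr14:63122462-63145923) encodes cathepsin B, a cysteine protease found in most cells. At its brightest probe set it had 10.16, 10.17 and 10.19 in the MA group and 10.46, 10.45 and 10.47 in the control group, a 1.22-fold fall (difference -0.29, adjusted p = 1.62e-05). The 4 probe sets of Ctsb did not move alike. The second brightest fell by 0.15, the third differed by 0.04 (adjusted p = 0.482) and the dimmest rose by 0.17 (adjusted p = 0.0117). When the 4 were averaged the difference was -0.06 (adjusted p = 0.0769), so that the call for Ctsb rests on its brighter probe sets.

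Ctsl (chr13:64361890-64370772) encodes cathepsin L, a cysteine protease known to be induced in atrophying muscle fibers. Its values of 10.74, 10.75 and 10.72 in the MA group stood over 10.49, 10.50 and 10.48 in the control group. Ctsl was thus the only one of the 10 genes with every MA array above every control array, and it rose 1.18-fold (difference 0.24, standard error 0.021, adjusted p = 3.85e-05). Its other probe set was at 3.83 in both groups, under the background of 3.90, the level of the array's probes for nonspecific binding, and differed by -0.01 (adjusted p = 0.842). Averaging both probe sets brought the difference to 0.12.

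Among the proteins that handle lipids and sugars, all 3 fell. Npc2 (chr12:84754559-84773112), a soluble protein that carries cholesterol out of the lysosome, had 8.46, 8.49 and 8.52 in the MA group and 9.02, 9.02 and 8.99 in the control group. The gap between the groups was many times their spread, and Npc2 was 1.44-fold lower (difference -0.52, adjusted p = 1.11e-06). Its other probe sets fell by 0.48 and 0.21.

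Hexa (chr9:59539540-59565109) encodes the alpha subunit of beta-hexosaminidase, which degrades gangliosides. Its 3 MA arrays stood at 9.19, 9.20 and 9.19 and its 3 control arrays at 9.62, 9.62 and 9.62, with standard deviations of 0.0088 and 0.0039. This was the tightest pair of groups among the 10 genes, with a 1.34-fold fall (difference -0.43, adjusted p = 1.16e-06).

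Gaa (chr11:119267963-119285458) encodes acid alpha-glucosidase, which degrades lysosomal glycogen and is lost in Pompe disease, a disorder of muscle. It had 8.45, 8.46 and 8.50 in the MA group and 8.96, 8.98 and 8.99 in the control group. The fall was 1.42-fold (difference -0.51, standard error 0.023, adjusted p = 9.26e-07), close in size to that of Npc2.

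The membrane glycoproteins Lamp1 and Lamp2, which line the inner face of the lysosomal membrane, differed least. Lamp1 (chr8:13159161-13175338) had 10.41, 10.40 and 10.41 in the MA group and 10.48, 10.52 and 10.49 in the control group, a 1.06-fold fall (difference -0.09, 95% confidence interval -0.14 to -0.04, adjusted p = 0.00943). Lamp2 (chrX:38399647-38456460), whose loss causes Danon disease of heart and skeletal muscle, had 9.84, 9.85 and 9.85 against 9.89, 9.97 and 9.94. Control replicate 1 lay closest to the MA arrays without overlapping them, and the fall was 1.07-fold (difference -0.09, 95% confidence interval -0.15 to -0.03, adjusted p = 0.0217). The other probe sets of Lamp2 fell by 0.13 and 0.11. Lamp2 did not pass without control replicate 2 (adjusted p = 0.0769), control replicate 3 (adjusted p = 0.0636), MA replicate 1 (adjusted p = 0.0592) or MA replicate 2 (adjusted p = 0.0626), nor with the one-way test of the methods (adjusted p = 0.0518).

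Tfeb (chr17:47737037-47792416), the transcription factor, had 5.74, 5.74 and 5.72 in the MA group and 6.08, 5.96 and 6.07 in the control group. Its spread in the control group was the widest of the 10 genes (standard deviation 0.068, n = 3), and control replicate 2 was the lowest of that group but still over all MA arrays. Tfeb was 1.23-fold lower (difference -0.30, standard error 0.034, adjusted p = 1.86e-04). It lay above the background of 3.90 but under 7.24, the level of the GC-richest nonspecific-binding control, which was set aside after its value was seen. The RNA level says nothing of where the protein was in the cell, which is how TFEB is mainly controlled.

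Counted by probe set, 16 of the 20 fell and 2 rose, with the last 2 not past the test, against 21.4% lower and 21.6% higher among all 45037 probe sets. The probe sets that rose were the brighter one of Ctsl and the dimmest of Ctsb, and those that did not pass were the dimmer one of Ctsl and the third brightest of Ctsb. Of the 5 genes with several probe sets, Ctsz, Npc2 and Lamp2 went 1 way at all of them.

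**Figure D2:**
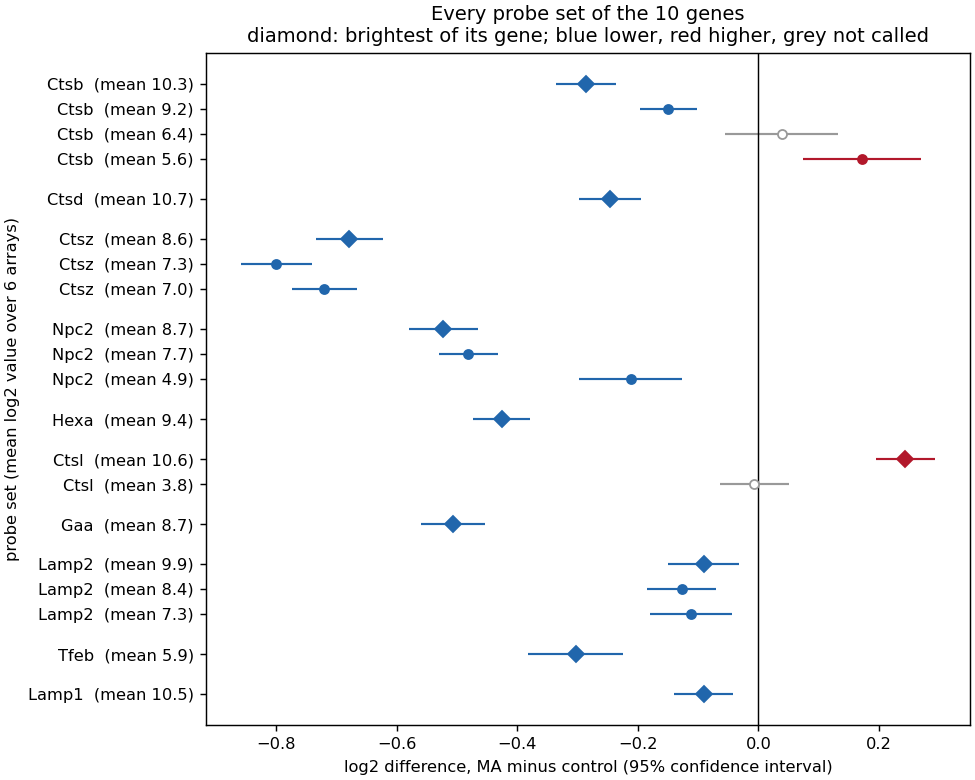
Log2 difference between the MA and control groups (x axis) of each of the 20 probe sets, with its 95% confidence interval and, beside the gene's name, its mean log2 value over 6 arrays. Diamonds mark the brightest probe set of a gene. Ctsz reaches -0.80, Lamp1 and Lamp2 lie near -0.1, and the 4 probe sets of Ctsb spread from -0.29 to 0.17.

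Macrophage-rich and fiber-expressed genes were compared next. Ctsb, Ctsd, Ctsz, Npc2 and Hexa were taken as macrophage-rich and Ctsl, Gaa, Lamp2 and Tfeb as fiber-expressed, from general knowledge of the genes, and Lamp1 was put in neither. This split was made with earlier results of these data known. All 10 are made in many cell types, and an array of whole muscle does not assign RNA to cells. All 5 macrophage-rich genes fell, by 0.25 to 0.68 with a median difference of -0.43. Of the 4 fiber-expressed genes, 3 fell and 1 rose, between -0.51 and 0.24 with a median of -0.20. By summed level, however, the fiber-expressed genes were slightly higher in the MA group. They stood at 11.561 to 11.571 on the log2 scale there and at 11.527 to 11.559 in the control group. Ctsl, the brightest of the 4, weighs most in that sum. The summed level of the macrophage-rich genes was 11.95 to 11.96 in the MA group and 12.30 to 12.31 in the control group.

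Within single arrays, the median of the macrophage-rich genes relative to the control mean was -0.43 to -0.42 in the MA group, and that of the fiber-expressed genes was -0.20 to -0.19. The gap between them was -0.24, -0.22 and -0.23 in the MA arrays. In the control arrays it was -0.012 to 0.0072, which is small by construction, since each gene was taken relative to its control mean. The values of single MA arrays thus restate the class medians above and add no separate support for a difference between the classes. With so few genes in each class the gap depended on single members. It was -0.33 without Gaa, which fell as much as the macrophage-rich genes, and -0.16 with Lamp1 counted as macrophage-rich. The ranges of the classes overlapped, and no test over so few genes was made.

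Most markers of macrophages fell with these genes. Of 23 on the array, 21 fell and 1 rose, while Itgam was under the background, with a median of -0.69. The calls make 91.3% lower and 4.35% higher, beside 23.0% and 24.7% of all genes. The summed level of the markers was 11.27 to 11.30 on the log2 scale in the MA group and 12.08 to 12.10 in the control group. The marker that rose, named after its values were seen, was Trem2, by 0.16 (adjusted p = 0.00114). Cd68, not counted among the 23 and given below with the membrane proteins, differed by 0.12 (adjusted p = 0.198). Adgre1, the surface antigen F4/80 of macrophages, fell from 7.35, 7.40 and 7.44 to 6.19, 6.29 and 6.29, a difference of -1.14. Lyz2, the lysozyme of myeloid cells, and Cd14, a receptor for bacterial lipopolysaccharide, fell by 0.69 and 0.67. The macrophage receptors Mrc1 and Csf1r fell by 0.39 and 0.24. Of the 5 macrophage-rich lysosomal genes, Ctsz fell by 0.68, about as much as the median marker, and by 0.80 and 0.72 at its other probe sets. The others fell by 0.25 to 0.52. Fewer macrophages and less of these RNAs in each macrophage cannot be told apart in RNA of whole muscle, and the part of macrophage number in the falls of the lysosomal genes was not tested.

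Markers of muscle fibers leaned the other way. Of 20 on the array, 11 rose and 2 fell, with a median of 0.11 and a summed level of 16.27 in the MA group and 16.18 to 16.19 in the control group. The calls make 55% higher and 10% lower, beside 24.7% and 23.0% of all genes. Ckm, the muscle creatine kinase, rose by 0.17, Acta1, the skeletal muscle actin, by 0.13 and Ttn, titin, by 0.09, while Atp2a1, the calcium pump of fast fibers, differed by 0.03 (adjusted p = 0.251). The rises of Ckm, Acta1 and Ttn and the list's median had the sign of the hybridization controls and lay within their range of 0.04 to 0.35. The largest rise of the list, 0.62, lay above that range. The part of what moved these controls was not tested. The markers that fell, named after their values were seen, were Ryr1, the calcium release channel, by 0.29 and Mb, myoglobin, by 0.06. All 20 were above the background, Acta1 with means of 12.62 and 12.49, so that the labelled tissue carried its defining markers. Of the other cell types, endothelial markers were lower in 9 of 10 cases, with a median of -0.20. Of 8 markers of T and NK cells, 6 fell and 1 rose. Fibroblast markers rose in 5 of 9 cases and fell in 2. Of 6 neutrophil markers 2 rose and 1 fell, of 3 adipocyte markers 2 rose and 1 fell, and of 5 Schwann cell markers 2 rose and 2 fell. Beside the shares of all genes, endothelial markers were 90% lower and those of T and NK cells 75% lower and 12.5% higher. Fibroblast markers were 55.6% higher and 22.2% lower, and neutrophil markers 33.3% higher and 16.7% lower. The adipocyte and Schwann cell lists are too short for a share to say much. Among these calls, Tie1 (endothelial), Cd3g and Klrd1 (T and NK cells), S100a9 (neutrophils), Lep (adipocytes) and S100b (Schwann cells) were not above the background, and S100a9 was the neutrophil marker that fell. Their part in the results was not tested.

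The rest of the lysosome was lower on balance, in uneven measure. Of 80 further genes of lysosomal enzymes, membrane proteins and the proton pump, 50 fell and 11 rose, which is 62.5% lower and 13.8% higher, beside 23.0% and 24.7% of all genes. Their median was -0.17. Past 1.2-fold with p under 0.05 unadjusted, 21 of the 80 were lower and 2 higher, beside 6.87% lower and 5.92% higher of all genes.

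Of 12 other lysosomal proteases, 9 fell and 1 rose, which is 75% lower and 8.33% higher, beside 23.0% and 24.7% of all genes. Ctss, the cathepsin that trims the invariant chain in antigen-presenting cells, fell 1.74-fold, from a control mean of 8.99 ± 0.013 to an MA mean of 8.19 ± 0.049 (SD, n = 3 each). Ctsf, another cysteine cathepsin, and Scpep1, a serine carboxypeptidase, both fell by 0.38. Ctsk, the cathepsin of osteoclasts, rose by 0.09.

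Of the 5 lists that make up these 80 genes, glycosidases and sulfatases were the one whose median was not below zero. Among 17 of them 7 fell and 5 rose, with a median of 0.01. The calls make 41.2% lower and 29.4% higher, beside 23.0% and 24.7% of all genes, so that the share of rises was near that of all genes. Gla, Manba and Ctbs, named after their values were seen, were not above the background. They differed by 0.01, 0.16 and 0.06, and Manba was among the 5 that rose. The list's median was the value of Gla, so that its sign rested on genes not above the background. Man2b1, the acid alpha-mannosidase, fell by 0.34, Arsa, the sulfatase of sulfatides, by 0.26 and Gusb, beta-glucuronidase, by 0.22. Galc, the galactosylceramidase that degrades myelin lipids, rose from 4.13 ± 0.094 to 4.69 ± 0.087 (SD, n = 3 each), a 1.48-fold rise, and was the largest rise among the 80 genes. Its control mean was little above the background of 3.90, and its SDs were above 0.032, the median within-group SD of all probe sets. Sgsh and Galns, sulfatases of heparan and keratan sulfate, rose by 0.19 and 0.15.

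Enzymes of lipids, phosphate esters and nucleic acids, with their activators, fell in 11 of 15 cases and rose in 1. The calls make 73.3% lower and 6.67% higher, beside 23.0% and 24.7% of all genes. Grn, progranulin, which reaches the lysosome and is abundant in macrophages, fell by 0.75, Psap, the precursor of the saposins that activate sphingolipid hydrolases, by 0.72 and Ifi30, a thiol reductase of antigen-presenting cells, by 0.51. The Psap arrays were at 9.14 ± 0.026 and 9.86 ± 0.0064 (SD, n = 3 each). Asah1, acid ceramidase, rose by 0.15.

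Lysosomal membrane proteins fell in 11 of 19 cases and rose in 2, which is 57.9% lower and 10.5% higher, beside 23.0% and 24.7% of all genes. Laptm5, of hematopoietic cells, fell by 0.73, Mcoln1, the calcium channel TRPML1, by 0.46 and Scarb2, the receptor that sorts glucocerebrosidase, by 0.41. Laptm4b and Tmem192 rose by 0.16 and 0.15. Cd68, a lysosomal membrane protein widely used to stain macrophages and picked here after its values were seen, had 5.57, 5.82 and 5.87 in the MA group and 5.65, 5.65 and 5.60 in the control group, which overlap (difference 0.12, adjusted p = 0.198).

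Of 17 subunits of the V-ATPase, 12 fell and 2 rose, which is 70.6% lower and 11.8% higher, beside 23.0% and 24.7% of all genes. The falls were mostly small, with a median of -0.16 for the list. Atp6v0b, of the membrane sector, fell by 0.54, Tcirg1, the subunit used by osteoclasts and macrophages, by 0.32 and Atp6v1a, the catalytic subunit, by 0.26. Atp6v0e and Atp6v0d2 rose by 0.32 and 0.25.

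**Figure D3:**
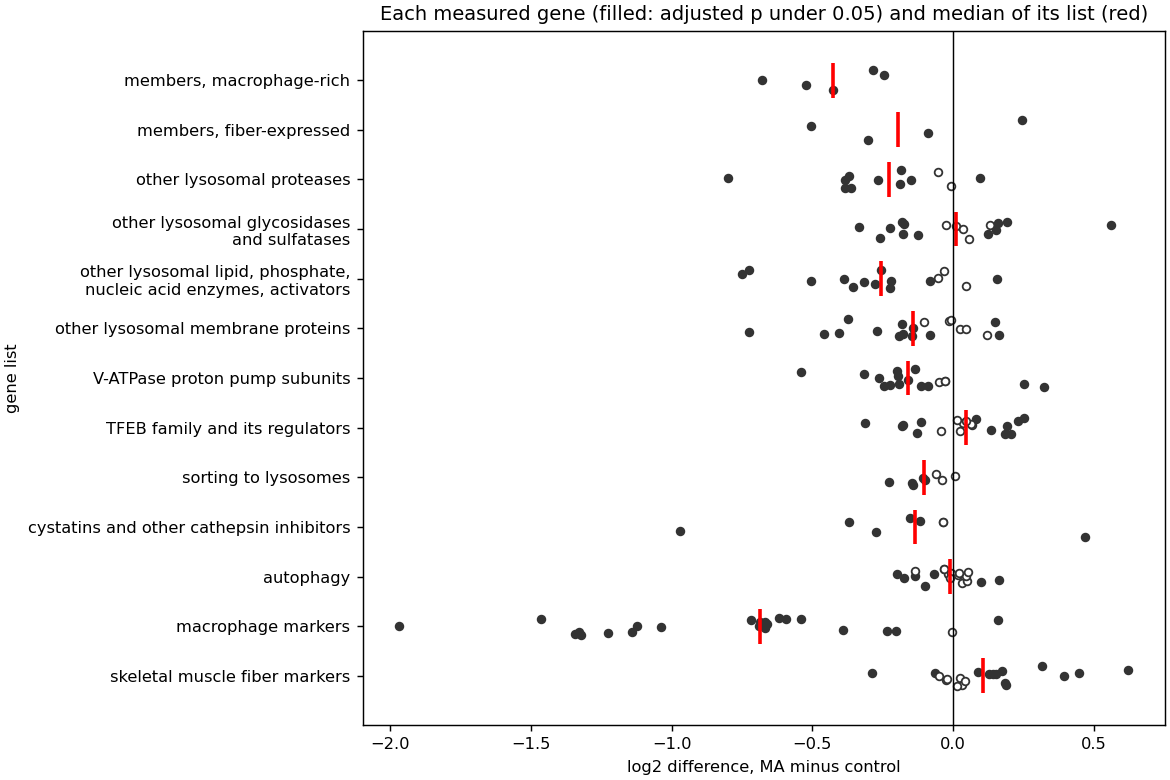
Log2 difference between the MA and control groups (x axis) of each measured gene of 13 lists, filled where its adjusted p was under 0.05, with a red line at the list's median. The medians were -0.43 and -0.20 for the macrophage-rich and fiber-expressed classes, -0.69 for macrophage markers, 0.11 for muscle fiber markers and -0.01 for autophagy.

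The relatives and regulators of Tfeb went both ways. Of 19, 5 fell and 7 rose, with a median of 0.05. That is 26.3% lower and 36.8% higher, beside 23.0% and 24.7% of all genes. Tfe3 and Mitf, its close relatives and named after their values were seen, had overlapping arrays. Tfe3 differed by -0.04 (adjusted p = 0.202) and Mitf by 0.03 (adjusted p = 0.317). Fnip2 and Flcn, partners in the complex that acts on the Rag GTPases, fell by 0.31 and 0.18, and Fnip1, the paralog of Fnip2, rose by 0.25. Lamtor3 and Lamtor2, of the scaffold that anchors mTORC1 to the lysosome, rose by 0.23 and 0.21. Zkscan3, a repressor of autophagy genes, fell by 0.18.

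Genes that sort proteins to the lysosome were lower where they passed. Of 8 genes, 5 fell and 0 rose by limma, with 0 higher also where p was not adjusted. The calls make 62.5% lower and 0% higher, beside 23.0% and 24.7% of all genes. M6pr, the cation-dependent mannose 6-phosphate receptor, and Sort1, sortilin, fell by 0.23 and 0.14. Gga3, an adaptor of these receptors, fell by 0.15, and the adaptor Gga1 and Cln8, a protein of the endoplasmic reticulum, both named after their values were seen, fell by 0.10 and 0.11. Inhibitors of cathepsins were lower on balance. Of 8, 5 fell and 1 rose, which is 62.5% lower and 12.5% higher, beside 23.0% and 24.7% of all genes. Ctla2b, related to the propeptide of cysteine cathepsins, fell from 5.47 ± 0.022 to 4.49 ± 0.028 (SD, n = 3 each), 1.96-fold, and Cstb, a cystatin of the cytosol, fell by 0.37. Cst6, a secreted cystatin that inhibits cathepsin L among others, rose by 0.47. Of 19 autophagy genes, 5 fell and 2 rose, which is 26.3% lower and 10.5% higher, beside 23.0% and 24.7% of all genes. The other 12 were not called, as were 8932 of all 17097 genes. Atg4b and Ulk1 were lower by 0.20 and 0.17 and Gabarapl2 was higher by 0.16.

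The promoters of the genes were read for the E-box that TFEB binds. The element is known as CLEAR, and its center is CACGTG, which is the same on both strands. A longer form with the T before it, TCACGTG or CACGTGA on the other strand, was counted too and contains the first. RefSeq windows of 250 bases before to 50 after the start (GRCm38.p6) were at hand for 9 of the 10 genes. CACGTG stood in the windows of 4 of the 9, Ctsd, Ctsl, Gaa and Lamp1, and the longer form in 3, all of these but Ctsl. The Ctsl match stood 236 bases before the start of its window, whose start lies inside the annotated span of the gene. Over all 27025 genes with a window, 8.09% held the first and 4.29% the second, and among the other lysosomal enzymes, membrane proteins and pump subunits 23.6% and 22.2% of 72 genes did. A match is a run of letters and does not show that TFEB binds there, and no match says only that these letters are not in this window.

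The stretches with the longer form are shown because it is the element that TFEB is known to bind, with CACGTG and the flanking T or A in capitals. Lamp1 (chr8:13159075-13159160, plus strand, just upstream of its first exon) held the core 4 times, at 61, 45, 28 and 15 bases before the start. Ctsd held it at 245 and at 98 bases before the start (chr7:142388042-142388077 and chr7:142387895-142387950, minus strand, upstream of the gene). Gaa held it once, at 140 bases before the start (chr11:119267798-119267853, plus strand, upstream of the gene).
Lamp1: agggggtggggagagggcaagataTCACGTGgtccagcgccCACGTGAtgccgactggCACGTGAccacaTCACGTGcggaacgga
Ctsd, far: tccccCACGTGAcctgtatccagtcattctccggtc
Ctsd, near: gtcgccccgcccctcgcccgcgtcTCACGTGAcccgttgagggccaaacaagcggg
Gaa: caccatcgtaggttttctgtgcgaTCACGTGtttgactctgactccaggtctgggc

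By their medians, genes with the longer form fell by no more than those without it. Lamp1, with 4 cores, fell by 0.09, Ctsd, with 2, by 0.25 and Gaa, with 1, by 0.51, while Ctsz, Npc2, Hexa, Tfeb and Lamp2, without any core, fell by 0.68, 0.52, 0.43, 0.30 and 0.09. Ctsl, with the core but not the longer form, rose by 0.24. The median difference was -0.25 for the 3 with it and -0.36 for the 6 without. Among the other lysosomal genes measured, the 16 with it had a median of -0.16, with 10 lower and 2 higher, and the 51 without it had a median of -0.18, with 32 lower and 5 higher. The presence of the element was not tested against the size of the differences.

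**Figure D4:**
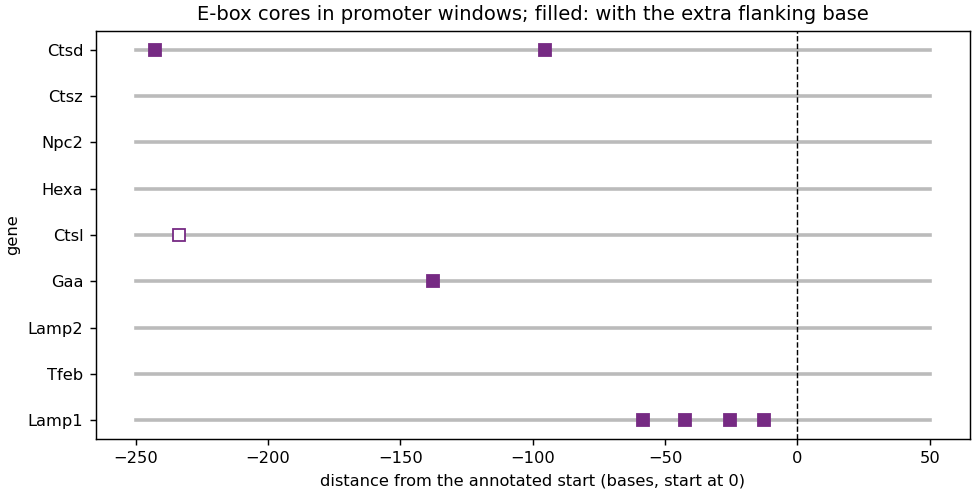
Position of the E-box core (squares, filled where the extra flanking base is present) in the promoter windows of the 9 genes with one, by distance from the annotated start in bases (x axis). Lamp1 holds 4 cores within 61 bases of its start, Ctsd holds 2, Gaa and Ctsl 1 each, and the other 5 genes none.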

How the data were processed

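Gastrocnemius RNA of denervated mice was measured on 6 Affymetrix GeneAtlas arrays, 3 of the MA and 3 of the control group. The study's methods name a mouse array and the probe set names are of a mouse design, although the series text names a human one. They were read as mouse arrays. The deposited log2 values were made by the authors with RMA in Expression Console, whose version is not given in the sources used here. RMA corrects background, quantile-normalizes the arrays and summarizes probe sets, so that a shift shared by all genes is removed. The array medians lay between 4.27 and 4.28. The arrays give no counts, and their number limits the precision: 3 against 3 cannot reach an exact permutation p under 0.1.

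The values were fitted across 45037 probe sets, after 104 array controls were set aside, with lmFit and eBayes of limma 3.58.1 in R 4.3.3, with no covariate and Benjamini-Hochberg adjustment over all probe sets. The step was checked on simulated data. Symbols came from the platform annotation, updated through Entrez numbers to RefSeq (GRCm38.p6). The 551 probe sets with several symbols and the 15588 without one stayed in the fit but got no gene. Of 262 listed genes 228 were measured, and the others were not analysed here. The background of 3.90 is the highest mean of the nonspecific-binding controls, of which the GC-richest, at 7.24, was set aside after its value was seen. Tfeb, Cd14 and Csf1r, among other genes, lay under 7.24 in both groups.

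Named were all 10 genes, up to 3 called genes with the largest rise and fall of each lysosomal list, and fixed markers. The members, classes and lists were chosen with earlier results of these data known. A sum of levels adds linear values over a list's genes. Results were recomputed with a replicate block, array weights, a trended or robust eBayes, the unmoderated one-way test that the methods name, median centring, repeated quantile normalization, dim probe sets removed, a gene's probe sets averaged, other class memberships, and each array left out in turn.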

Additional observations from a re-analysis of the deposited data

How the results depend on the processing

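Ctsz, Npc2, Hexa, Gaa, Ctsd, Ctsl, Tfeb and Lamp1 kept their direction and their call under every alternative that measured them, and no gene reversed. Ctsb lost its call when its probe sets were averaged (-0.06) and Lamp2 under the settings named with its values. The count of lower genes was 8 or 9, that of higher genes 1 and that of genes past 1.2-fold 5 or 6 in all alternatives. Lower probe sets numbered 14 to 16. Higher probe sets numbered 1 with the one-way test and 1 with only probe sets above the brightest nonspecific-binding control, an alternative added after the data were seen. The median of the 10 genes was -0.28 with array weights, -0.27 with averaged probe sets, -0.28 with quantile normalization again, -0.29 above that control (which leaves out Tfeb), and -0.32 to -0.28 when single arrays were left out. The gap between macrophage-rich and fiber-expressed genes was -0.33 without Gaa, -0.16 with Lamp1 as macrophage-rich, -0.20 with averaged probe sets, -0.33 above that control, -0.24 with quantile normalization again, and -0.24 to -0.22 when single arrays were left out. The replicate numbers paired the arrays weakly at most. Same-numbered deviations from the group means correlated with r = 0.188, 0.0416 and 0.142 across probe sets, and unlike-numbered ones with r = -0.18 to 0.0698. MA replicate 2 correlated best with control replicate 3 (r = 0.0698). With a replicate block 9 genes were lower and 1 higher, and 16 probe sets were lower and 2 higher, the counts without it. The number of arrays and the small differences of Lamp1 and Lamp2, under the median of the hybridization controls and within their range of sizes, limit what can be said of these genes.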
